A study of Mus musculus with 3 samples.

Results

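The genes described here are 10 genes of growth hormone signalling through the transcription factor STAT5 in liver: Ghr, Stat5b, Cish, Socs2, Socs3, Igf1, Igfals, Igfbp2, Bcl6 and Onecut1. They were picked by symbol from the 32285 genes of the deposited table, with their counts in these libraries already known, so that their differences between libraries are given as a description. Liver cells of 9-week-old male C57BL/6 mice were profiled in droplets with the 10x Genomics 3' kit, version 3.1, which counts unique molecular identifiers (UMIs), 1 for each captured transcript. All mice were Ifih1-/- and Alb-Cre+, and the 3 libraries, 1 per genotype, were labelled Adar1wt/wt, Adar1wt/flox or Adar1flox/flox, shortened below to wt/wt, wt/flox, flox/flox. Where 3 values stand together without names, they follow this order. Ifih1 encodes MDA5, a sensor of double-stranded RNA, and Alb-Cre places Cre recombinase under the albumin promoter, which is active in hepatocytes; no library is from mice with a working Ifih1 gene or without Cre. ADAR1 edits double-stranded RNA, and the study asked what its depletion does when MDA5 is absent. The labels do not say how many mice gave a library.

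Growth hormone binds its receptor GHR on hepatocytes, which activates the kinase JAK2, and JAK2 phosphorylates STAT5. STAT5 enters the nucleus, binds paired half-sites and switches on genes of body growth, such as Igf1, together with genes of its own brakes, the CIS and SOCS proteins. In male rodents the hormone arrives in pulses and in females more evenly, and this pattern sets many sex differences of liver gene expression, in part through the repressor BCL6 and the factor HNF6, the product of Onecut1.

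Hepatocyte barcodes were those with fewer than 2 UMIs in sum over Ptprc, Clec4f, Kdr, Dcn and Cd79a, which mark leukocytes, Kupffer cells, endothelial cells, stellate cells or fibroblasts, and B cells. Each library gave 9264, 9188 and 9063 of them, at a median depth of 840, 883 and 917 UMIs and a median mitochondrial share of 4.88%, 4.02% and 7.26%. They held 8882430, 9101542 and 9651160 UMIs, to which levels are scaled as CPM, the usual depth-scaled count; 3 UMIs, the limit that a count of 0 allows, equal 0.338, 0.330 and 0.311 CPM. Alb was detected in 100% of them in each library, and the median barcode held 11 or 12 of 12 hepatocyte markers. Barcodes of other classes also carried 34.2% to 62.2% of the summed level of these 12 markers, so that a hepatocyte barcode cannot be told from a droplet of free hepatocyte RNA by them. Between pairs of libraries 20, 27 and 32 barcode sequences were shared. Adar itself had 101, 170 and 360 UMIs, or 11.4, 18.7 and 37.3 CPM, an order against the label flox/flox. Which exons are floxed is not given in the sources used here, and a 3' tag outside the deleted part checks nothing, so every direction below rests on the labels. With 1 library per genotype there is no replicate check and no test: genotype, animal, time of collection and preparation cannot be told apart, and every interval below is a 95% interval for counting error only.

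The gate left some RNA of other cells in these barcodes. UMIs of 30 markers of Kupffer cells, other leukocytes, B cells, endothelial cells, stellate cells or fibroblasts and bile duct cells were absent from 86.3%, 80.2% and 81.5% of hepatocyte barcodes. The 6 other leukocyte markers, all detected in each library, summed to 198, 443 and 297 CPM, and the 4 B cell markers to 40.4, 86.8 and 71.0 CPM. The 6 Kupffer markers summed to 75.1, 98.8 and 114 CPM, the 5 endothelial markers to 79.6, 86.9 and 47.0 CPM, and the 5 stellate or fibroblast markers to 20.3, 20.5 and 15.96 CPM. The 4 bile duct markers summed to 10.5, 29.7 and 23.4 CPM, with Krt7 at 0 in wt/flox and Krt19 at 0 in flox/flox. Haemoglobin genes summed to 1462, 7104 and 175 CPM. Values are therefore also given for barcodes without any such marker UMI and with at most 20 haemoglobin UMIs, called marker-free barcodes, of which there were 7957, 7115 and 7381. At the low depth of these barcodes, the absence of marker UMIs does not show that RNA of other cells was absent.

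STAT5 dimers bind the palindrome TTCNNNGAA, which reads the same on both strands, and its matches near the starts of these genes are shown because the genes were grouped as STAT5 targets. RefSeq windows of 300 bases, 250 before and 50 after an annotated start (GRCm38.p6, the mm10 build), were found for 9 of the 10 genes, with Socs2 not matched. The palindrome occurred in a window of 4 of these 9 genes, Cish, Socs3, Igfals and Bcl6, and in 8.30% of all 32851 windows, or for 9.55% of 27025 genes. Windows of Igf1, Ghr, Onecut1, Stat5b and Igfbp2 did not hold these letters, which says nothing about binding elsewhere. Capitals mark the palindrome, and each sequence is read 5′ to 3′ on the strand of its gene.
Cish, first exon: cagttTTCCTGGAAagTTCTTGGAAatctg
Socs3: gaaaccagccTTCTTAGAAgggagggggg
Igfals, first start: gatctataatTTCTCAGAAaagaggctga
Igfals, second start: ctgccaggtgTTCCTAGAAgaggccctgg
Bcl6, first start: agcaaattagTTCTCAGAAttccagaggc
Bcl6, second start: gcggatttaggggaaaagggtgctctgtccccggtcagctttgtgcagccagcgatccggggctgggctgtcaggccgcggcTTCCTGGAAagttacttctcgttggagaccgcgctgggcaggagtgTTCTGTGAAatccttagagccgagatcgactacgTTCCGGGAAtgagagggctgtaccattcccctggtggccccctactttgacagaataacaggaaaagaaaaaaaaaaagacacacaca
The Cish pair, at chr9:107296654-107296683 on the plus strand, has 2 bases between its palindromes and lies in a UTR of the GENCODE annotation, with the first palindrome beginning at the RefSeq start itself. The Socs3 palindrome, at chr11:117969512-117969520 on the minus strand, begins 154 bases before the start, in an intron of the GENCODE annotation. The Igfals palindromes, at chr17:24877608-24877616 and chr17:24878173-24878181 on the plus strand, begin 236 and 58 bases before their starts and are intronic in GENCODE. At the first Bcl6 start the palindrome, at chr16:23988962-23988970 on the minus strand, lies outside the annotated gene. The stretch before the second Bcl6 start, chr16:23981284-23981533 on the minus strand, is intronic and holds 3 palindromes, at -168, -122 and -88. Windows with 2 or more palindromes made up 0.457% of all windows, and those with 3 or more 0.0335%, or 11 windows.

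The receptor gene differed by less than 1.5-fold between libraries, and the transducer gene was highest in wt/wt. Ghr (chr15:3317760-3583492, minus strand) encodes the growth hormone receptor and stood at 383 CPM (371 to 397; 3406 UMIs) in wt/wt, 408 CPM (395 to 421; 3714 UMIs) in wt/flox and 342 CPM (330 to 354; 3298 UMIs) in flox/flox. Its level in flox/flox was the lowest, and the intervals of wt/wt and wt/flox overlapped; the largest of its 3 ratios was -0.26 on the log2 scale, flox/flox over wt/flox, and none reached 1.5-fold. Stat5b (chr11:100780731-100850724, minus strand), which encodes the main STAT5 protein of male liver, stood at 68.2 CPM (62.9 to 73.9; 606 UMIs) in wt/wt, 45.7 CPM (41.4 to 50.3; 416 UMIs) in wt/flox and 44.1 CPM (40.0 to 48.5; 426 UMIs) in flox/flox. Its level was thus highest in wt/wt, and the intervals of the other two libraries overlapped. The log2 ratio over wt/wt was -0.58 (-0.76 to -0.40) in wt/flox and -0.63 (-0.81 to -0.45) in flox/flox, which puts it just outside 1.5-fold lower in the first and just inside in the second. In marker-free barcodes both ratios, -0.62 and -0.68, were past 1.5-fold. With at most 20% mitochondrial UMIs, or with CPM averaged over barcodes, the flox/flox ratio fell short of 1.5-fold, at -0.58 and -0.56. Stat5b has a close paralog, Stat5a, which stood at 10.6, 9.34 and 8.60 CPM, a difference from wt/wt of -0.18 (-0.62 to 0.26) in wt/flox and -0.30 (-0.74 to 0.14) in flox/flox on the log2 scale; reads of such paralogs can be split uncertainly. For Jak2, the kinase bound to GHR, the same differences were -0.19 (-0.52 to 0.14) and 0.01 (-0.30 to 0.33).

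Cish, Socs2 and Socs3, genes of negative feedback, were highest in wt/flox. Cish (chr9:107296026-107302784, plus strand) encodes CIS, which blocks STAT5 docking at cytokine receptors. It had 37 UMIs in wt/wt (4.17 CPM, 2.93 to 5.74), 438 in wt/flox (48.1 CPM, 43.7 to 52.8) and 103 in flox/flox (10.7 CPM, 8.71 to 12.9). No pair of the 3 intervals overlapped. The log2 ratio over wt/wt was 3.53 (3.04 to 4.06), or 11.6-fold, in wt/flox and 1.36 (0.80 to 1.94), or 2.56-fold, in flox/flox; flox/flox was 4.51-fold below wt/flox. The share of hepatocyte barcodes with a Cish UMI (exact Clopper-Pearson intervals) was 0.399% (0.281% to 0.550%) in wt/wt, 4.53% (4.11% to 4.97%) in wt/flox and 1.14% (0.93% to 1.38%) in flox/flox. After thinning to 1000 UMIs per barcode, with 6438, 6082 and 5529 shallower barcodes left out, the shares were 0.566%, 5.09% and 1.16%. No barcode had more than 3 Cish UMIs, so the higher sum in wt/flox came from more barcodes rather than from a few rich ones.

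Socs2 (chr10:95385362-95417180, minus strand) encodes a SOCS protein that marks the growth hormone receptor for degradation, and mice without it overgrow. It stood at 18.6 CPM (15.8 to 21.6; 165 UMIs) in wt/wt, 40.4 CPM (36.4 to 44.8; 368 UMIs) in wt/flox and 16.3 CPM (13.8 to 19.02; 157 UMIs) in flox/flox. Intervals of wt/wt and flox/flox overlapped, while wt/flox lay above both. Over wt/wt, the log2 ratio was 1.12 (0.85 to 1.40) in wt/flox and -0.19 (-0.52 to 0.13) in flox/flox. Socs3 (chr11:117966079-117970047, minus strand) encodes a brake that acts mainly on STAT3 signals of the interleukin 6 family. It had 21 UMIs in wt/wt (2.36 CPM, 1.46 to 3.61), 188 in wt/flox (20.7 CPM, 17.8 to 23.8) and 30 in flox/flox (3.11 CPM, 2.10 to 4.44). As for Socs2, wt/flox stood apart and the other intervals overlapped, with log2 ratios over wt/wt of 3.13 (2.47 to 3.85) in wt/flox and 0.39 (-0.46 to 1.27) in flox/flox.

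These feedback genes were also present in barcodes of other cells, and the summed leukocyte, B cell and bile duct markers and haemoglobin genes left in hepatocyte barcodes were highest in wt/flox as well. In Ptprc+ barcodes, the class of leukocytes, Cish had 2, 10 and 12 UMIs, which is 426%, 82.8% and 278% of its hepatocyte level in the same library. Socs2 had 5, 9 and 20 UMIs there, or 239%, 88.7% and 304%, and Socs3 had 2, 7 and 5 UMIs, or 750%, 135% and 398%. In wt/flox the Ptprc+ levels of Cish and Socs2 were thus below the hepatocyte level, at 39.8 and 35.9 CPM, and all of these counts are low. In marker-free barcodes the differences were as large or larger: log2 ratios of wt/flox over wt/wt were 4.31 (3.65 to 5.06) for Cish, 1.26 (0.96 to 1.57) for Socs2 and 3.56 (2.71 to 4.55) for Socs3. Cish there had 19, 346 and 75 UMIs, or 2.51, 50.0 and 9.80 CPM. The 136, 138 and 438 barcodes with at least 2000 UMIs held only 2, 12 and 15 Cish UMIs and 0, 7 and 7 Socs3 UMIs. With wt/wt under the limit of 3 UMIs, their ratios there cannot be set against those of all hepatocyte barcodes.

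**Figure D1:**
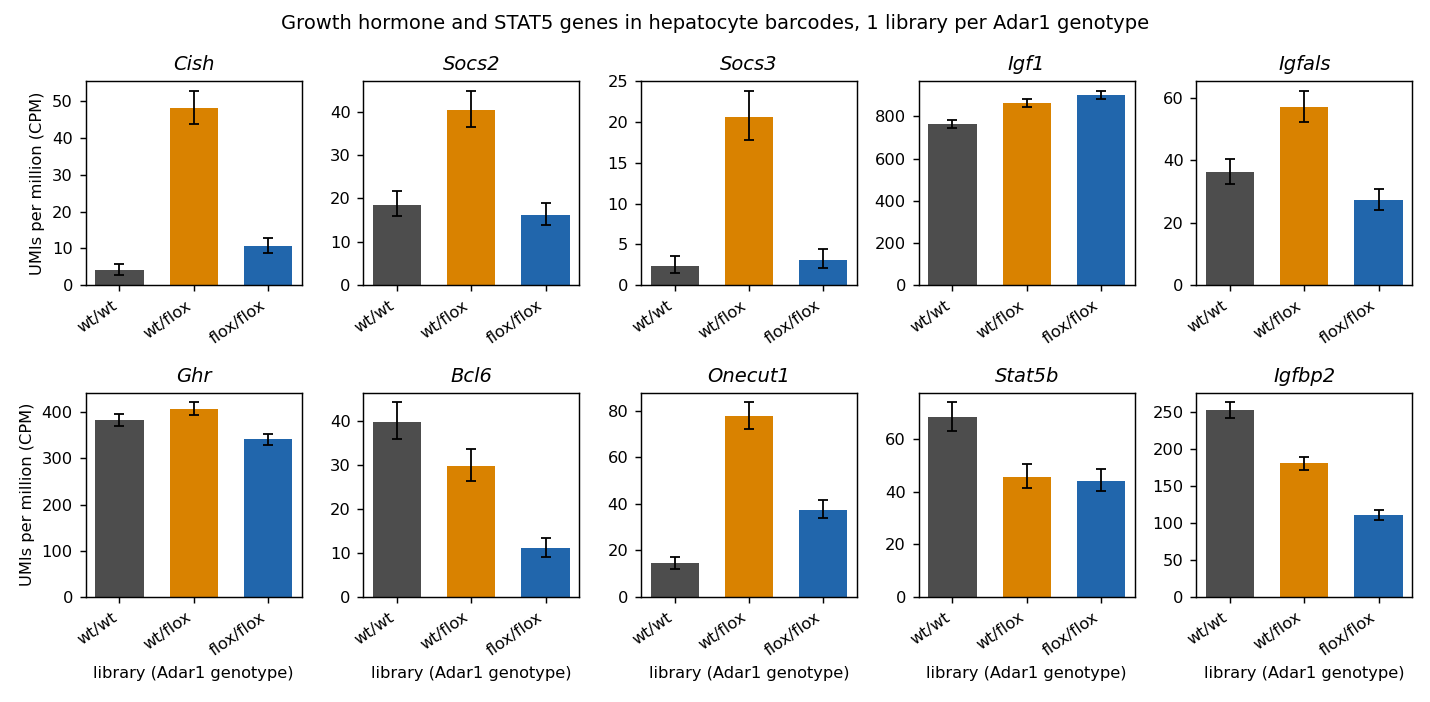
CPM (y axis, linear from 0, a scale of its own in each panel) of the 10 genes in hepatocyte barcodes of each library (x axis); bars are levels and error bars 95% Poisson intervals for counting error, with 1 library per bar. Cish, Socs2, Socs3, Igfals and Onecut1 are highest in wt/flox, whereas Bcl6, Igfbp2 and Stat5b are highest in wt/wt.

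The secreted growth factor and its carriers did not share a direction. Igf1 (chr10:87858265-87937042, plus strand) encodes the hormone through which growth hormone drives body growth, and stood at 763 CPM (744 to 781; 6773 UMIs) in wt/wt, 860 CPM (841 to 880; 7831 UMIs) in wt/flox and 901 CPM (883 to 921; 8700 UMIs) in flox/flox. Its intervals did not overlap, but the log2 ratios over wt/wt were only 0.17 (0.13 to 0.22) and 0.24 (0.20 to 0.29). The share of hepatocyte barcodes with an Igf1 UMI was 49.9%, 56.0% and 56.6%, and 50.6%, 58.0% and 57.2% after thinning. Barcodes with 3 or more Igf1 UMIs numbered 415, 560 and 850, and the richest held 8, 8 and 16 UMIs.

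Igfals (chr17:24865997-24882010, plus strand) encodes the acid-labile subunit, which holds IGF1 and its binding protein in a stable complex in blood. It stood at 36.4 CPM (32.5 to 40.6; 323 UMIs) in wt/wt, 57.1 CPM (52.3 to 62.3; 520 UMIs) in wt/flox and 27.5 CPM (24.3 to 31.0; 265 UMIs) in flox/flox, with no overlap among the 3 intervals. The log2 ratio over wt/wt was 0.65 (0.45 to 0.86) in wt/flox, just past 1.5-fold, and -0.41 (-0.65 to -0.17) in flox/flox. In barcodes of at least 2000 UMIs the first of these was 0.18. Igfbp2 (chr1:72824503-72852474, plus strand) encodes a binding protein that sequesters IGFs and is known to be lowered by growth hormone. It stood at 253 CPM (242 to 263; 2245 UMIs) in wt/wt, 181 CPM (172 to 190; 1646 UMIs) in wt/flox and 111 CPM (104 to 118; 1071 UMIs) in flox/flox, a stepwise order without overlap. The log2 ratio over wt/wt was -0.48 (-0.58 to -0.39) in wt/flox and -1.19 (-1.29 to -1.08) in flox/flox, and -0.42 and -1.15 in marker-free barcodes.

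Bcl6 and Onecut1, the other transcription factor genes of the set, differed from wt/wt in opposite directions. Bcl6 (chr16:23965052-23988852, minus strand) encodes a repressor that competes with STAT5 at many liver sites and is itself turned down by growth hormone. It had 355 UMIs in wt/wt (40.0 CPM, 35.9 to 44.3), 272 in wt/flox (29.9 CPM, 26.4 to 33.7) and 108 in flox/flox (11.2 CPM, 9.18 to 13.5), again stepwise and without overlap. Its log2 ratio over wt/wt was -0.42 (-0.65 to -0.19) in wt/flox and -1.84 (-2.16 to -1.52), or 3.57-fold lower, in flox/flox. The latter was -2.17 (-2.56 to -1.80) in marker-free barcodes. Onecut1 (chr9:74861921-74891781, plus strand) encodes HNF6, a hepatocyte factor that growth hormone raises. It had 128 UMIs in wt/wt (14.4 CPM, 12.02 to 17.1), 706 in wt/flox (77.6 CPM, 72.0 to 83.5) and 362 in flox/flox (37.5 CPM, 33.7 to 41.6). All 3 intervals were apart, in the same order as for Cish, with log2 ratios over wt/wt of 2.43 (2.15 to 2.71) in wt/flox and 1.38 (1.09 to 1.68) in flox/flox. Marker-free barcodes gave 2.57 (2.28 to 2.88) and 1.44 (1.12 to 1.77). Onecut1 overlaps a long noncoding RNA gene on its strand, and Cish, Igf1 and Bcl6 overlap genes on the opposite strand, whose reads can be told apart only if counting used strand.

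Of the 10 genes, 5 were at least 1.5-fold higher in wt/flox than in wt/wt, namely Cish, Socs2, Socs3, Igfals and Onecut1, and 0 were lower; of all 12769 genes with at least 20 UMIs, 13.5% were that much higher and 6.05% that much lower. In flox/flox over wt/wt, 2 were higher, Cish and Onecut1, against 17.1% of all genes, and 3 were lower, Bcl6, Igfbp2 and Stat5b, against 7.75%. In flox/flox over wt/flox, 0 were higher, against 12.1%, and 7 were lower, against 10.5%; the other 3 were Igf1, Ghr and Stat5b. Because the genes were chosen with these values known, the shares are background and nothing is read from them. The median log2 ratio of the 10 was 0.41 in wt/flox over wt/wt, -0.18 in flox/flox over wt/wt and -1.05 in flox/flox over wt/flox, beside 0.07, 0.11 and 0.03 over all genes. The second and the third comparison each share a library with the first, so that the high wt/flox levels of the feedback genes enter both the first and the third.

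**Figure D2:**
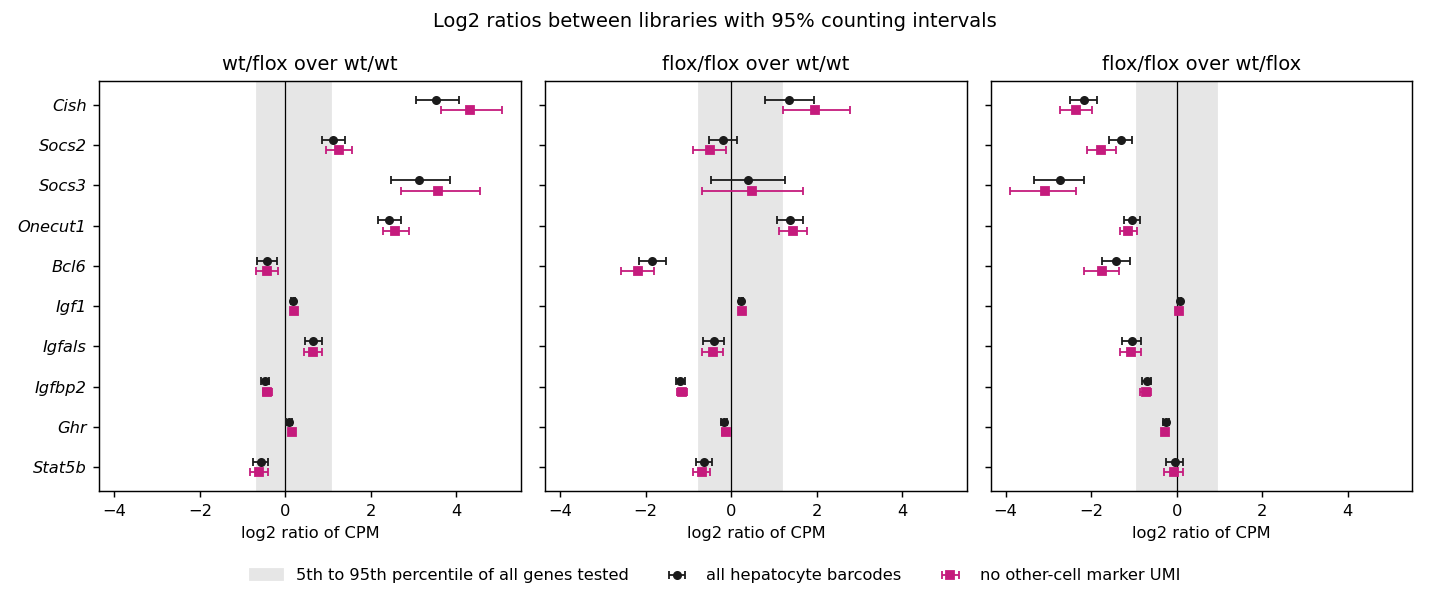
Log2 ratios of CPM (x axis) of the 10 genes (y axis) for wt/flox over wt/wt, flox/flox over wt/wt and flox/flox over wt/flox, in all hepatocyte barcodes (black circles) and in marker-free barcodes (pink squares); bars are 95% counting intervals, and the grey band spans the 5th to 95th percentile of all genes tested. Cish, Socs2, Socs3 and Onecut1 lie above the band in wt/flox over wt/wt, and Bcl6 and Igfbp2 lie below it in flox/flox over wt/wt.

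Immediate early genes are induced within minutes by growth hormone, cytokines or handling of cells. Of 15 such genes, 7 were at least 1.5-fold higher in wt/flox than in wt/wt, against 13.5% of all genes. They were Myc, Fos, Egr1, Fosb, Junb, Atf3 and Nr4a1. The other 8 did not reach 1.5-fold in either direction. The median log2 ratio was 0.51, beside 0.07 over all genes. Myc had 36, 300 and 61 UMIs, and its log2 ratio in wt/flox was 3.02 (2.52 to 3.57). Fos stood at 2.53 (2.12 to 2.97) and Egr1 at 2.20 (2.02 to 2.38) in the same comparison. In flox/flox over wt/wt the counts were 2 higher, Myc and Fosb, and 1 lower, Nr4a1 at -1.72 (-2.31 to -1.15). The shares of all genes there were 17.1% higher and 7.75% lower. The barcodes without a UMI of Fos, Fosb, Egr1, Atf3, Nr4a1 and Myc numbered 8758, 7197 and 8544. Among them the log2 ratios of wt/flox over wt/wt were 3.41 (2.91 to 3.95) for Cish and 3.09 (2.40 to 3.87) for Socs3. They were 1.10 (0.81 to 1.39) for Socs2 and 2.38 (2.09 to 2.68) for Onecut1. At the low depth of these barcodes, the absence of such UMIs does not show that a cell lacked the transcripts. A link of immediate early genes to these ratios was not tested.

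Cish-bearing barcodes of wt/flox were compared with the rest of that library. The 416 barcodes with a Cish UMI had a median of 976 UMIs, and the 8772 without one 879.5. Onecut1 stood at 179 CPM (142 to 222; 81 UMIs) in the former and at 72.3 CPM (66.7 to 78.2; 625 UMIs) in the latter. Socs2 stood at 61.8 CPM (41.0 to 89.3, from 28 UMIs) against 39.3 CPM (35.2 to 43.7), with overlapping intervals. Such overlap does not show equal levels, and no interval of the ratio was computed here. Socs3, Igf1, Igfals, Ghr, Bcl6, Stat5b and Igfbp2 also had overlapping intervals, and so did Egr1, at 179 CPM (142 to 222) against 157 CPM (149 to 166), and Fos. Alb was lower in barcodes with Cish, at 17647 against 19158 CPM. In flox/flox, Onecut1 stood at 73.7 CPM (35.3 to 135; 10 UMIs) in the 103 barcodes with Cish and at 37.0 CPM (33.2 to 41.1) in the others, and in wt/wt it had 0 UMIs in the 37 barcodes with Cish.

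Position along the liver lobule was read from 8 pericentral and 8 periportal marker genes, and barcodes with at least 10 UMIs of these were put into 3 groups of like size over the libraries by the pericentral share, with limits at 0.176 and 0.3. Such a side is a range of a score and not a cell type: 1563, 1269 and 1255 barcodes lay within 0.02 of a limit. Too few zonation UMIs left 1511, 2846 and 2043 hepatocyte barcodes unscored, most in wt/flox, so the shares cover unlike parts of the libraries. The pericentral side held 35.8%, 47.9% and 24.2% of scored barcodes, and the periportal side 31.9%, 22.7% and 46.4%. Igfbp2 had the widest difference between sides in flox/flox, 150 CPM (133 to 169) pericentral against 81.0 CPM (72.1 to 90.6) periportal, a log2 ratio of 0.89 (0.65 to 1.13); in wt/wt the ratio was 0.27 (0.11 to 0.43) and in wt/flox 0.15 (-0.07 to 0.37). Ghr was also higher on the pericentral side in flox/flox, 419 CPM (391 to 450) against 309 CPM (291 to 327), while its intervals overlapped between sides in the other libraries. Onecut1 leaned the other way in wt/flox, with 70.0 CPM (61.0 to 79.9) pericentral and 107 CPM (91.2 to 124) periportal. Socs2 was higher on the pericentral side of wt/wt, 23.3 CPM (17.9 to 29.8) against 12.8 CPM (8.72 to 18.0), and Socs3 had 12 UMIs there and 0 on the periportal side.

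Differences between libraries were present on both sides for the genes with the widest ratios. Cish stood at 4.38, 57.3 and 11.5 CPM on the periportal side and at 4.07, 49.1 and 8.48 CPM on the pericentral side. Bcl6 stood at 45.8, 40.6 and 12.3 CPM on the periportal side and at 36.3, 31.1 and 11.1 CPM on the pericentral side. Its wt/wt and wt/flox intervals overlapped on the periportal side, 37.8 to 55.0 and 31.2 to 51.9 CPM. They also overlapped on the pericentral side, 29.4 to 44.2 and 25.3 to 38.0 CPM. On each side the flox/flox interval lay below both. For Igfbp2 in flox/flox over wt/wt, the log2 ratio was -0.89 among pericentral barcodes, the smallest over the alternatives tried. Stat5b in the same comparison was lower by more on the pericentral side, at 78.8 CPM (68.6 to 90.1) in wt/wt and 37.1 CPM (28.9 to 46.9) in flox/flox.

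**Figure D3:**
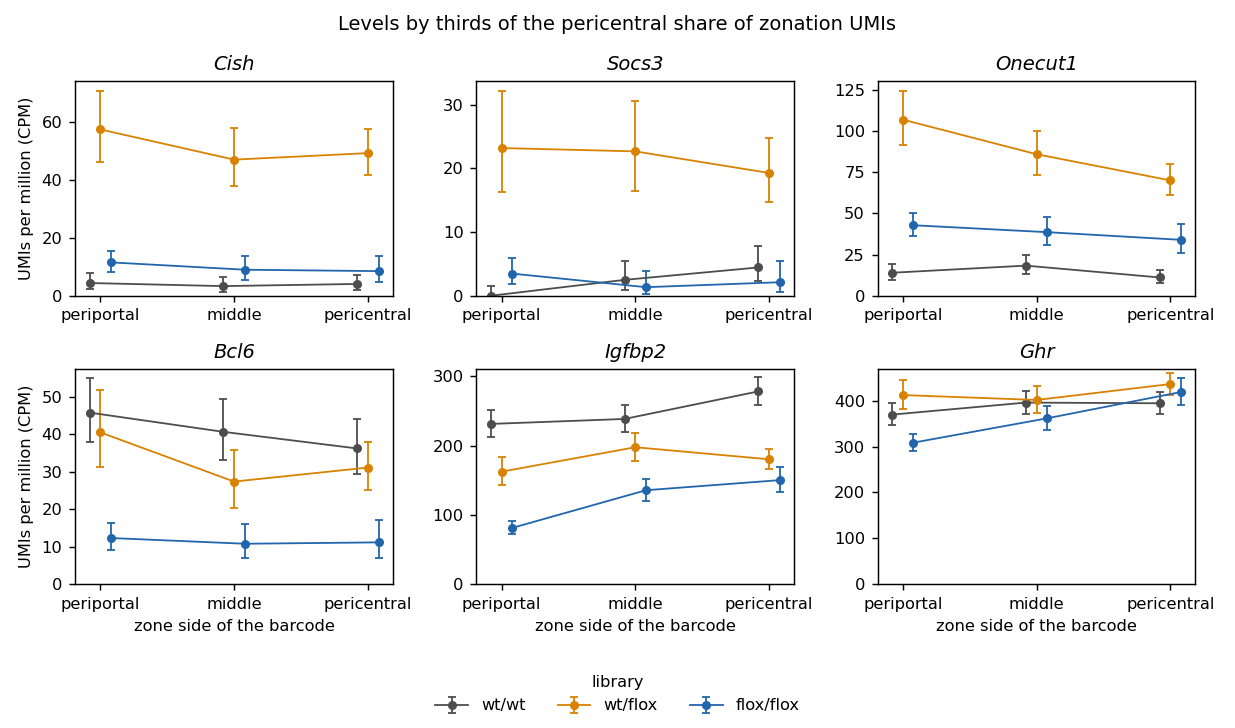
CPM (y axis, linear from 0) of Cish, Socs3, Onecut1, Bcl6, Igfbp2 and Ghr in periportal, middle and pericentral hepatocyte barcodes (x axis), with wt/wt in grey, wt/flox in orange and flox/flox in blue; points are levels, bars 95% Poisson intervals and lines join the 3 sides of 1 library. Cish and Onecut1 are highest in wt/flox on each side, and Igfbp2 in flox/flox goes from 81.0 CPM on the periportal to 150 CPM on the pericentral side.

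Levels in barcodes of other cells were set beside those of the 12 hepatocyte markers. These markers stood at 40.5% to 47.9% of their hepatocyte level in Clec4f+ barcodes, a marker of Kupffer cells, at 45.7% to 57.6% in Kdr+ barcodes (endothelial), at 54.6% to 61.7% in Dcn+ barcodes (stellate or fibroblast) and at 46.6% to 56.8% in Ptprc+ barcodes. Igfbp2, over the 3 libraries summed, stood at 42.3%, 50.0%, 50.8% and 45.7% of its hepatocyte level. The summed level was within the marker range in Clec4f+ and Kdr+ barcodes and below it in Dcn+ and Ptprc+ barcodes. Sums mix libraries of unlike Igfbp2 level, and by library the places differed. Clec4f+ barcodes gave 46.0%, 55.4% and 24.1%, against markers at 47.9%, 47.9% and 40.5%. Kdr+ barcodes gave 39.1%, 54.3% and 39.1%, against 54.7%, 57.6% and 45.7%. In Dcn+ barcodes Igfbp2 stood at 35.1%, 62.2% and 59.3%, against 57.2%, 61.7% and 54.6%. In Ptprc+ barcodes it stood at 42.1%, 57.3% and 55.7%, against 55.7%, 56.8% and 46.6%. Ghr, over the 3 libraries summed and in the same class order, stood at 57.2%, 58.6%, 65.9% and 49.7%. Its summed level was above the range in all classes but Ptprc+. By library, the Clec4f+ share of Ghr was 70.7%, 57.7% and 46.9%. Igf1 stood at 57.9%, 58.5% and 53.6% in Kdr+, Dcn+ and Ptprc+ barcodes, but at 99.1% in Clec4f+ barcodes, 835 CPM (763 to 913; 484 UMIs). The Clec4f+ level was 697 CPM (572 to 842) in wt/wt, 911 CPM (783 to 1053) in wt/flox and 864 CPM (746 to 994) in flox/flox, or 91.4%, 106% and 95.8% of the hepatocyte level of the same library. Igf1 is known to be made by macrophages as well as by hepatocytes. Stat5b lay above the hepatocyte markers in each of the 4 classes, in this order and over the 3 libraries summed, at 112%, 149%, 132% and 96.9% of its hepatocyte level (34, 34, 22 and 39 UMIs). Its Kdr+ share by library was 99.2%, 202% and 164%, from 13, 16 and 5 UMIs. Bcl6, Cish, Socs2 and Socs3 had 23 UMIs or fewer in each of the Clec4f+, Kdr+ and Dcn+ classes, and their intervals were wide.

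**Figure D4:**
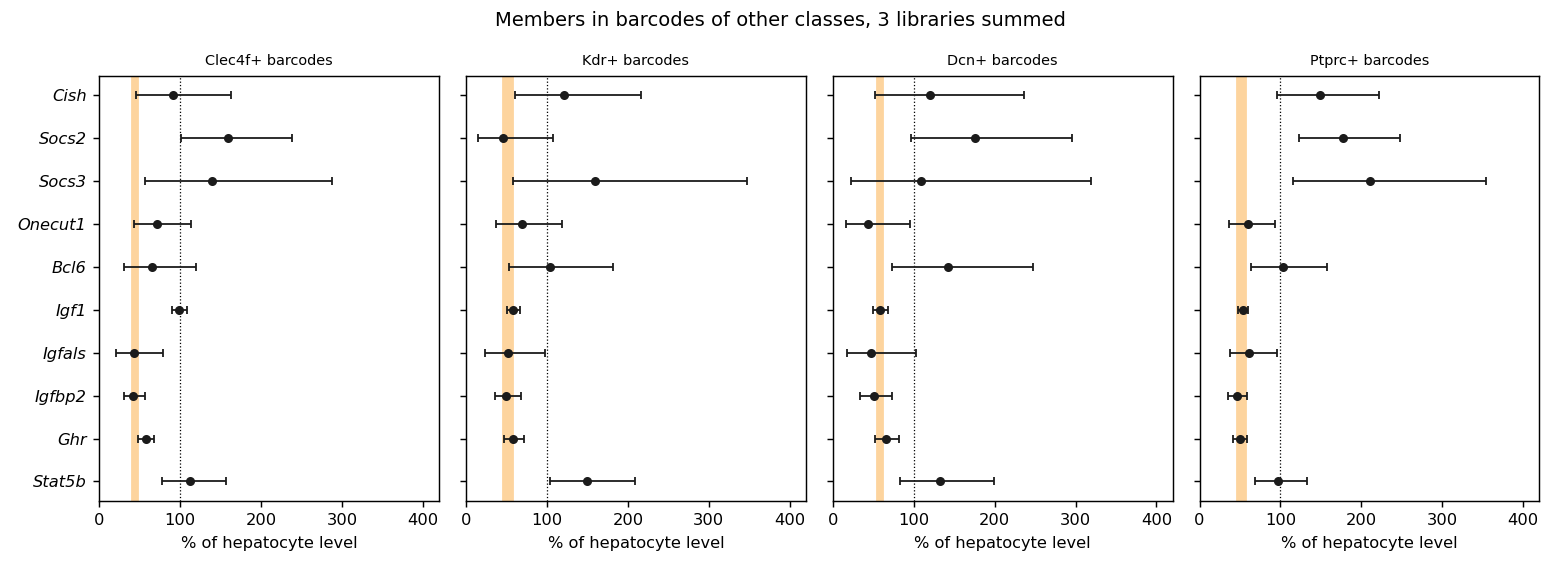
Level of the 10 genes (y axis) in Clec4f+, Kdr+, Dcn+ and Ptprc+ barcodes as a percentage of their level in hepatocyte barcodes (x axis), with the 3 libraries summed; bars are 95% Poisson intervals of the class level, the orange band spans the hepatocyte markers over the 3 libraries, and the dotted line is the hepatocyte level. Igf1 sits at 99.1% in Clec4f+ barcodes and near the band in the other panels. The points of Cish, Socs3, Bcl6 and Stat5b lie above the band in all panels, and that of Socs2 in all but Kdr+.

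Beyond the 10 genes, other parts of the pathway were described as lists. Genes were counted by the size of their ratio alone, so that some counted genes have intervals that include 0. Of all 12769 genes tested, 13.5% were at least 1.5-fold higher and 6.05% lower in wt/flox over wt/wt. In flox/flox over wt/wt these shares were 17.1% and 7.75%. The shares are background for every list below. Since the lists were chosen with earlier results known, nothing is read from their counts. The JAK-STAT core, 11 receptors, kinases and STATs, had 1 gene at least 1.5-fold higher, Stat2 at 0.73 (0.49 to 0.96), and 0 lower in wt/flox over wt/wt. In flox/flox Stat2, a STAT of interferon signalling, was at 1.16 (0.95 to 1.39), and 1 gene was lower, Stat5b. Feedback regulators, 15 genes, had 3 higher and 0 lower in wt/flox, all 3 of them among the 10 genes. In flox/flox 3 were higher as well, Cish, Socs7 at 0.68 (0.24 to 1.14) and Sh2b3, an adaptor that restrains JAK2, at 0.66 (0.29 to 1.04). The remaining SOCS genes and phosphatases did not reach 1.5-fold in wt/flox: Socs1, with 19, 26 and 24 UMIs, had a log2 ratio of 0.42 (-0.49 to 1.35) in that library.

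The IGF axis had 13 of 16 genes measured, with a median log2 ratio of -0.18 in wt/flox and -0.41 in flox/flox over wt/wt. In flox/flox 6 of 13 were at least 1.5-fold lower and 0 higher: Igfbp1, Igfbp2, Igfbp3, Igfbp7, Igf1r and Irs1. Igfbp3 and Igf1r had low counts, 25 and 52 UMIs in wt/wt, with log2 ratios of -0.76 (-1.77 to 0.20) and -0.69 (-1.35 to -0.05). Igfbp1, encoding a binding protein that insulin lowers, was lower in both, at -0.71 (-0.77 to -0.65) and -0.73 (-0.79 to -0.67), and Igfbp7 was lower in flox/flox, at -1.21 (-1.60 to -0.83). Igfbp7 is known from endothelial cells, whose 5 markers were also lowest in flox/flox, at 47.0 CPM against 79.6 in wt/wt, and their part in that value was not tested. Irs2, the insulin receptor substrate of liver, had 214, 688 and 184 UMIs, and its log2 ratio of 1.65 (1.43 to 1.88) in wt/flox was the highest of the list.

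Among 17 measured regulators of sex-biased liver expression, 4 were at least 1.5-fold higher and 2 lower in wt/flox over wt/wt. The 4 were Onecut1, its relative Onecut2, at 0.78 (0.67 to 0.89), and the pioneer factors Foxa1, at 1.77 (1.34 to 2.22), and Foxa2, at 1.21 (0.98 to 1.44). Foxa3, at -1.04 (-1.23 to -0.84), and Cebpb, at -0.73 (-0.81 to -0.66), were the 2 lower ones. In flox/flox the log2 ratios over wt/wt were 0.55 (0.06 to 1.05) for Foxa1, which is below 1.5-fold, and 0.99 (0.67 to 1.33) for Trim24, a coregulator. Onecut1 was past 1.5-fold higher there too, Tox stood at 0.64 (-0.09 to 1.40), and the 1 lower gene was Bcl6.

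Genes known to be higher in male liver had 6 of 17 at least 1.5-fold higher and 0 lower in wt/flox over wt/wt, with a median of 0.40, and 4 higher and 5 lower in flox/flox, with a median of 0.20. Elovl3, a fatty acid elongase, had a log2 ratio of -1.34 (-1.42 to -1.26) in flox/flox, and Hsd3b5, a steroid-converting enzyme, -1.04 (-1.18 to -0.90), whereas Cyp4a12a stood at 0.89 (0.78 to 1.01). The other lower ones were Cyp4a12b, Cyp2u1 and Mup1, and the other higher ones Mup3, Mup20 and Mup21. Mup1, a major urinary protein gene with near-identical copies, so that its counts are uncertain, was at 1.59 (1.51 to 1.68) in wt/flox and -0.83 (-0.95 to -0.70) in flox/flox. Of 26 genes known to be higher in female liver, 11 were measured and 7 had 0 UMIs in these male livers. In flox/flox over wt/wt 5 of the 11 were higher and 1 was lower, with a median of 0.47; the 5 were Cyp2a4, Cyp2b10, Cyp2c40, Tox and Atp6v0d2, and the 1 was Cyp17a1. In wt/flox 2 were higher, Cyp2c40 and Cyp2c69, and 5 lower, Cyp2b10, Cyp17a1, Fmo2, Abcd2 and Atp6v0d2, with a median of -0.45. Cyp2a4, a steroid hydroxylase, had 8, 9 and 777 UMIs, which gives 6.48 (5.50 to 7.70) for flox/flox on the log2 scale, and has a near-identical neighbour, Cyp2a5, so that its reads may be split. Cyp2b9, another female-biased enzyme gene, had 1, 1 and 14 UMIs.

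Lipid genes known to be held down by STAT5 had 2 of 7 higher and 0 lower in flox/flox, with a median of 0.05, namely Cd36, a fatty acid transporter, at 1.01 (0.74 to 1.29), and Cidec, a lipid droplet gene, at 1.38 (-0.03 to 3.01). In wt/flox 0 were higher and 1 was lower, Scd1 at -0.71 (-0.73 to -0.69). STAT3 and acute-phase genes, the program that SOCS3 restrains, had 7 of 23 higher and 2 lower in wt/flox over wt/wt, and 5 higher, Lcn2, Orm2, Orm3, Lrg1 and Apcs, and 1 lower, Osmr, in flox/flox. Saa1, an acute-phase protein gene with a close copy, stood at 1.53 (1.39 to 1.68) in wt/flox, Orm2 at 2.39 (1.86 to 2.97) in wt/flox and 2.10 (1.55 to 2.68) in flox/flox, and Lcn2 at 2.29 (1.89 to 2.70) in flox/flox. Il6ra, the interleukin 6 receptor gene, had 549, 186 and 722 UMIs and was lowest in wt/flox, at -1.60 (-1.84 to -1.35), where Osmr was the other lower gene.

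**Figure D5:**
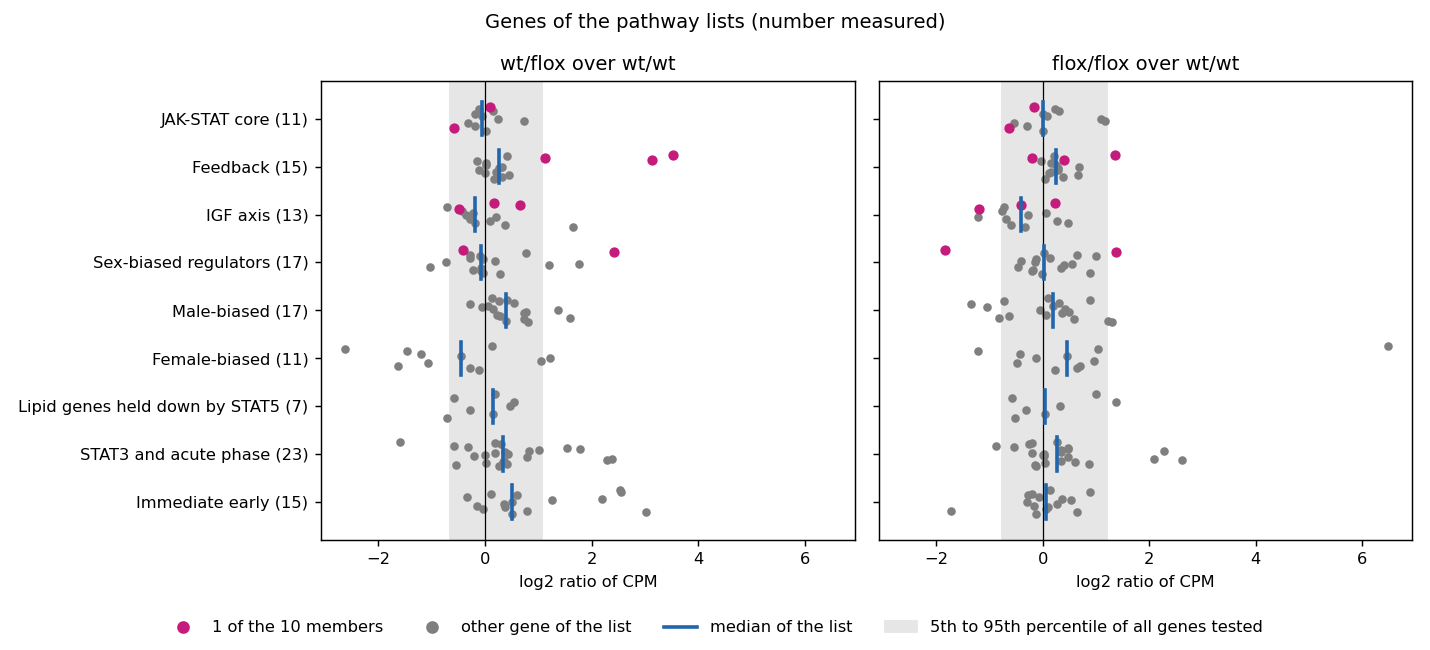
Log2 ratios of CPM (x axis) of genes in 9 pathway lists (y axis, number measured in brackets) for wt/flox over wt/wt and flox/flox over wt/wt; each point is a gene, pink points are members of the 10 genes, blue lines are list medians, and the grey band spans the 5th to 95th percentile of all genes tested. In wt/flox the feedback list has Cish and Socs3 far to the right and Socs2, at 1.12, just past the edge of the band at 1.06. The rest of that list is inside the band. In flox/flox the point farthest right is Cyp2a4 at 6.48.

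Genes with the most similar pattern were ranked by the Euclidean distance between their pairs of log2 ratios over wt/wt, among 9493 genes with at least 100 UMIs; with 3 libraries this rests on a pair of values per gene. Closest to Cish were Derl3, a gene of endoplasmic reticulum protein degradation, at a distance of 0.54, then Cyp26b1, a retinoic acid hydroxylase, Myc, Socs3 and Onecut1, at 1.10. Closest to Socs2 were Rarb, a retinoic acid receptor gene, at 0.06, Eef2k, Vmo1, Asap3 and Meis2, and closest to Bcl6 were Acaa1b, a peroxisomal thiolase gene, at 0.15, Lyve1, Bgn, Abtb2 and Mmd2. Lyve1 is an endothelial and Bgn a mesenchymal gene. Igfbp2 was closest to Cnksr3, at 0.02, Dyrk1b, St5, Pde4c and Ccdc62. Igf1, with ratios near those of all genes, had its 5 nearest genes, Nudcd3, Arl5a, Zcchc9, Azi2 and Rap2c, within 0.01.

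Barcodes without UMIs of interferon-stimulated genes were looked at as well. Of the hepatocyte barcodes, 8853, 8398 and 5818 had 0 UMIs over 8 such genes, fewest in flox/flox. Among them the log2 ratio of flox/flox over wt/wt was -1.92 (-2.33 to -1.52) for Bcl6 and -1.08 (-1.20 to -0.95) for Igfbp2. It was 1.33 (0.70 to 1.99) for Cish and 1.32 (0.98 to 1.66) for Onecut1. Each was on the same side of 1.5-fold as in all hepatocyte barcodes. At a median of 840 to 917 UMIs per barcode, 0 UMIs over these 8 genes does not show that a cell lacked their transcripts. The ratios describe the barcodes left, and a part of interferon in the differences was not tested.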

How the data were processed

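The authors deposited 1 table of raw counts, whole UMIs per gene and barcode, written by Cell Ranger 6.1.1 per the file headers. Seurat and mm10 are named in the submitters' processing notes. Each library holds 10000 barcodes, with totals of 9744380, 10067929 and 10756790 UMIs. The barcode suffix gave the library. Barcodes were kept from 500 UMIs and 250 genes upward if mitochondrial UMIs were at most 40% (9878, 9920 and 9772), and hepatocyte barcodes were gated by 5 genes. Doublets were not removed. UMIs were summed per library, with exact Poisson intervals for CPM and exact conditional binomial intervals for ratios; counts under 3 were set to 3 in ratios. Calculations used scipy 1.17.1, numpy 2.4.6 and pandas 2.3.3 in Python 3.11.15 and were tested on simulated data. With 1 library per group no test was possible. The 10 genes and all lists were chosen with earlier results of these data known. Named genes were the 10, a fixed set of pathway genes, the 2 highest and 2 lowest of each list with at least 50 UMIs, and the 5 most alike genes of 5 members; other genes, such as Onecut2, were named after their values were seen, to spell out short counts. Some genes of the lists are not reported here.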

Additional observations from a re-analysis of the deposited data

How the results depend on the processing

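No paired analysis was possible because each genotype has 1 library. Over 15 alternative barcode sets and scalings, 368 of 450 log2 ratios of the 10 genes moved by less than their counting interval, 82 moved by more, and 0 ratios past 1.5-fold changed sign. Ratios within 1.5-fold did: in flox/flox over wt/wt, Socs3 went from 0.39 to -1.07 on the pericentral side (4 against 12 UMIs), Ghr from -0.17 to 0.09 there and to 0.03 with at least 2000 UMIs, and Socs2 from -0.19 to 0.31 in nuclear-rich barcodes. The Socs3 ratio of -0.49 with at least 2000 UMIs sets 7 UMIs against 0 counted as 3 and gives no direction. In flox/flox over wt/flox, Igf1 kept its direction in 14, Ghr in 14 and Stat5b in 13 of 15 alternatives. Alternatives without immediate early, interferon-stimulated or other-cell marker UMIs were chosen after seeing the data. The count at least 1.5-fold lower in wt/flox over wt/wt was 0, but 1 with at most 20% mitochondrial UMIs, 0 gate UMIs, at least 1000 or at least 2000 UMIs, nuclear-rich barcodes, marker-free barcodes, and both other scalings (median of ratios, and total without mitochondrial and 50 most abundant genes), and 2 on the pericentral side. The 1 gene was Stat5b, which at -0.58 is close to that limit, except in nuclear-rich barcodes, where it was Igfbp2 at -0.74 and Stat5b stood at -0.53; on the pericentral side both were lower. The count lower in flox/flox over wt/wt was 3, and 5 on the pericentral side, 4 with at least 2000 UMIs or in nuclear-rich barcodes, and 2 with at most 20% mitochondrial UMIs or with the mean of per-barcode CPM, where Stat5b was lost (past 1.5-fold in 13 of 15 alternatives). Cish in wt/flox over wt/wt ranged from 2.08 (12 UMIs against 2 counted as 3, with at least 2000 UMIs) to 4.31. For Socs3 the ends were 1.30 with at least 2000 UMIs and 4.28 on the periportal side. These set 7 and 36 UMIs, in this order, against 0 in wt/wt counted as 3, so their size depends on that limit. The counting interval of the Socs3 ratio of 1.30 begins at 0.60. Onecut1 ranged from 2.34 to 3.34, and Bcl6 in flox/flox over wt/wt from -2.17 to -1.0 (barcodes rich in the nuclear transcript Malat1); why these moved was not tested. Igfals in wt/flox over wt/wt was past 1.5-fold in 11 of 15 alternatives. Other scalings moved the median of all genes by less than 0.1. At a median of 840 to 917 UMIs per barcode, the low counts of Cish and Socs3 in wt/wt limit their ratios.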
